A study of Mus musculus with 12 samples.

Results

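The mitochondrial solute carriers of the SLC25 family were examined in 12 mouse kidneys, together with Ucp2, a member of the same family that carries another name. Members were the genes of the count table whose symbol starts with Slc25a and a number, plus Ucp2, with a mean of at least 0.5 counts per 1000000 counts of a kidney (CPM) over the 12 kidneys. Of 48 such genes, 39 reached this level, out of 23420 genes in the table. The other 9 were Slc25a2, Slc25a18, Slc25a29, Slc25a31, Slc25a41, Slc25a43, Slc25a47, Slc25a53 and Slc25a54, and 4 of them (Slc25a18, Slc25a31, Slc25a41 and Slc25a54) had no count in any kidney. All 39 members passed the filter on low counts. At least 1 kidney held 3 counts or fewer for 15 of the 39, and among those 15 only Slc25a24 passed edgeR's test against control, while DESeq2 also called Slc25a21 in set B.

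SLC25 proteins sit mostly in the inner mitochondrial membrane and exchange nucleotides, phosphate, carboxylates, amino acids and cofactors between the cytosol and the matrix. They are encoded in the nucleus, made in the cytosol and brought into the inner membrane by dedicated import complexes. The proximal tubule and the thick ascending limb of the kidney are rich in mitochondria.

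Kidneys came from adult male C57BL/6J mice, 4 in each of 3 groups, and bulk RNA was sequenced from the parts of each kidney that remained after its middle portion had been fixed for histology. The methods describe the control kidneys as nephrectomy specimens, although the labels carry the same treatment text for every sample. The other 8 kidneys underwent 20 min of ischemia by clamping of the renal pedicle and were taken after 24 h of reperfusion. The study asked how ischemia in conscious mice differs from ischemia in anaesthetised mice, but the labels of the ischemic kidneys disagree on which is which. Set A therefore stands for the 4 kidneys with anaesthesia in the title and conscious in the group field, set B for the 4 with the reverse, and no difference between them is assigned to anaesthesia. In the methods the clamp was implanted in an earlier operation under ketamine and xylazine, with buprenorphine afterwards, and was closed under brief isoflurane sedation in conscious mice, while anaesthetised mice received ketamine and xylazine. The paper also speaks of a comparison with sham surgery, and whether the control mice had the clamp implanted is not settled by these sources. The methods describe a clamp on the left side, placed with or without removal of the right kidney. Whether the right kidney was removed here, and whether control kidneys came from mice that were later clamped, is not settled either. The part of the operation, of the kidney side or of such a pairing in a difference from control was not tested. The labels number the kidneys within each group and say nothing more about their origin, so that p-values measure the spread between these samples.

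Total counts ranged from 15367342 to 44793350 per kidney, and 3 counts, the limit that a count of 0 allows, corresponded to 0.067 to 0.195 CPM, which covers counting error only. The summed level of 8 proximal tubule markers was 6651 to 7517 CPM in controls against 707 to 1331 CPM (set A) and 413 to 1373 CPM (set B). The 4 thick ascending limb markers summed to 1598 to 1684, 287 to 387 and 272 to 798 CPM in the same order. For the 3 markers of the distal convoluted tubule the ranges overlapped, at 788 to 1119, 748 to 990 and 677 to 1066 CPM. The 3 podocyte markers were higher after ischemia without overlap, at 71.6 to 91.4 CPM in controls, 101 to 165 CPM in set A kidneys and 99.3 to 149.97 CPM in set B kidneys, and those of collecting duct and endothelium overlapped between all groups. Fat markers were at 0 in every kidney, and so were the adrenal markers Cyp11b1, Cyp11a1 and Hsd3b1, while the adrenal marker Star was at 0 in controls and reached up to 1.55 and 1.43 CPM in the ischemic sets. Set B kidney 4 had the smallest library and the fewest genes with at least 1 count, 10116 against 10482 to 11574 in the other kidneys.

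Several abundant carriers were lower after ischemia, and 2 members were higher. In set A against control, the quasi-likelihood F-test of edgeR placed 11 of the 39 carriers lower and 2 higher at a threshold of 0.05, after Benjamini-Hochberg adjustment over 11664 genes. Of all genes tested, 11.7% were lower and 10.5% were higher. In set B against control, 9 carriers were lower and 2 were higher, against 11.9% and 10.9% of all genes. The median log2 fold change of the 39 carriers was -0.84 for set A and -0.67 for set B, and that of all genes tested was -0.02 in both. Fold changes are given on the log2 scale ± standard error. The error is the absolute log2 fold change over the square root of the F statistic. The log2 fold change was below 0 for 34 of 39 carriers in set A, against 30 of 39 in set B, and for 5934 and 5927 of all 11664 genes. In bulk RNA, fewer cells of a type and less RNA per cell cannot be told apart, and the markers of the proximal tubule and thick ascending limb given above were lower in the same kidneys. Their part in the carrier results was not tested.

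None of the 17 carriers with a mean under 10 CPM over the 12 kidneys passed in edgeR's test, 1 of them had an unadjusted p below 0.05 in each set against control (31.5% and 32.7% of all genes), and DESeq2 called 0 for set A and 1, Slc25a21, for set B. Slc25a24, at 0.90 CPM in controls, was above that level only through the ischemic kidneys. In set A, 11 carriers were lower and 2 higher without any overlap between the 4 ischemic and the 4 control values, beside 15.2% and 13.2% of all genes. In set B, 11 were lower and 3 higher without overlap, beside 14.7% and 12.1% of all genes. Both comparisons use the same 4 control kidneys. The carriers called in both were Slc25a3, Slc25a5, Slc25a10, Slc25a13, Slc25a15, Slc25a16, Slc25a24, Slc25a39, Slc25a46 and Ucp2, which is 10 of 39, beside 18.6% of all genes called in both. Slc25a1, Slc25a11 and Slc25a25 were called in set A alone and Slc25a17 in set B alone, and none of these 4 differed between the sets at an adjusted p below 0.05.

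**Figure D1:**
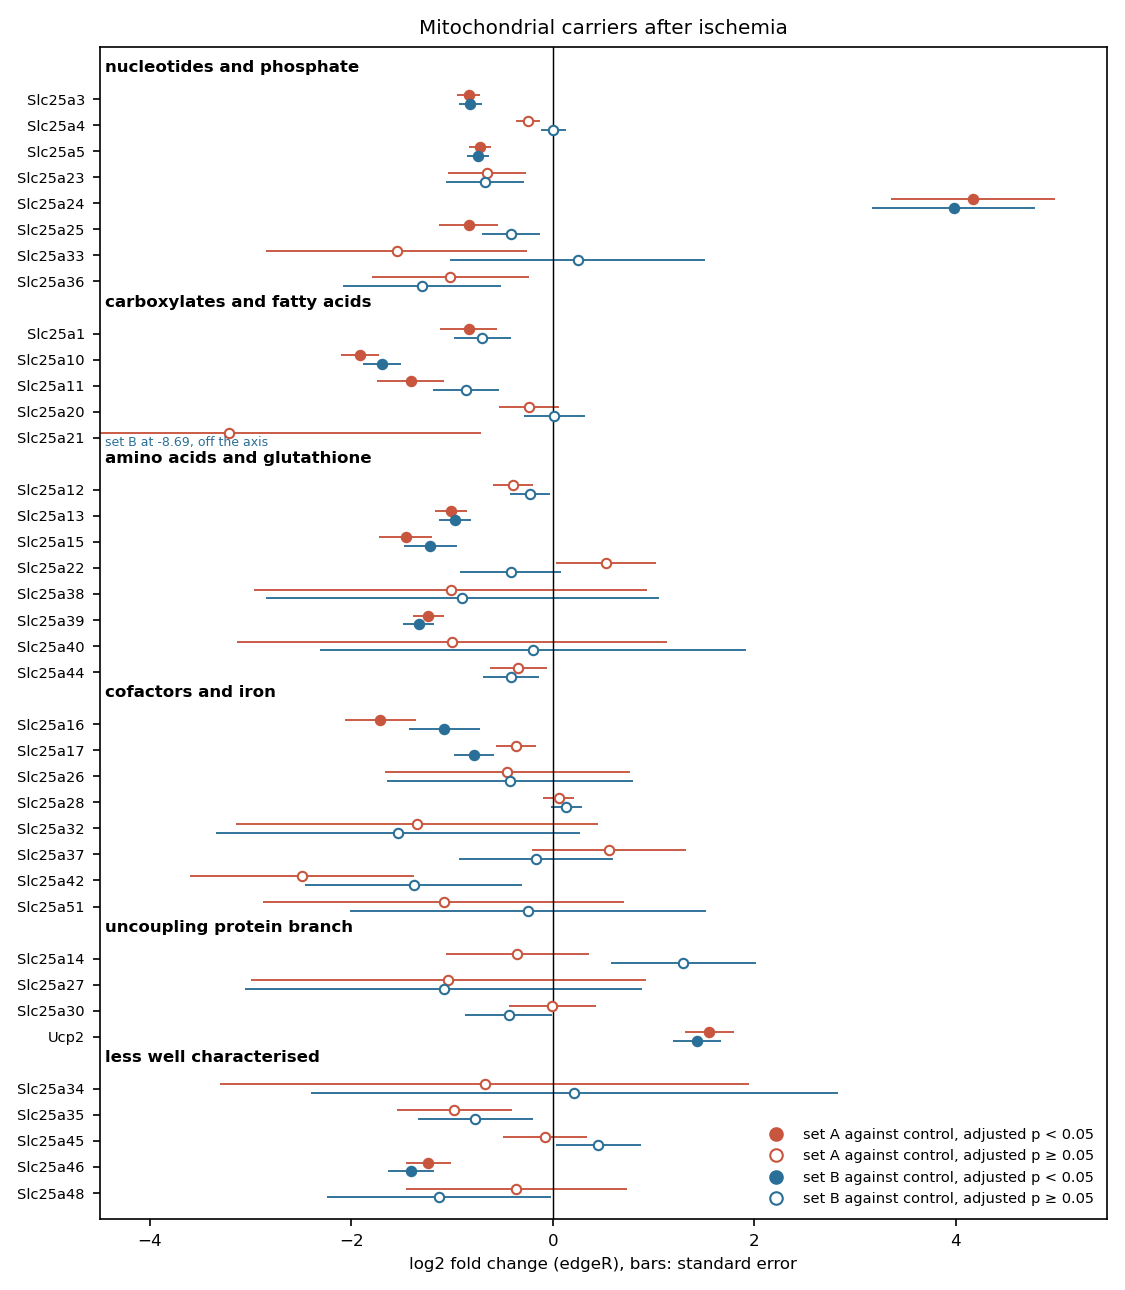
Log2 fold change against control of 38 of the 39 carriers (x axis, edgeR) by role, with set A in red, set B in blue and standard errors as bars. Filled points have an adjusted p below 0.05, and 1 point, Slc25a21 in set B (-8.69, no count in any of the 4 kidneys), lies off the axis. Filled points lie between -1.91 and -0.73 apart from Slc25a24 and Ucp2, which lie above 1.

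The summed level of the 39 carriers was 4171 ± 294 CPM in controls (SD, n = 4), 2746 ± 148 CPM in set A kidneys and 2810 ± 231 CPM in set B kidneys. All 8 ischemic kidneys, from 2612 to 3152 CPM, lay under the lowest control at 3887 CPM. Slc25a3, Slc25a4 and Slc25a5 gave 60.3 ± 2.6% of the sum in controls, 57.7 ± 2.1% for set A and 58.5 ± 2.2% for set B. The sum is a description of the chosen members and was given no test. Per kilobase of exon, Slc25a5 had the highest control level at 666 CPM per kb, followed by Slc25a3 at 191, Slc25a4 at 152, Slc25a39 at 146, Slc25a13 at 68.2, Slc25a10 at 50.5 and Slc25a28 at 46.6 CPM per kb. Ucp2 ranked 12 in this order in controls, at 13.1 CPM per kb, and reached 39.1 CPM per kb in set A kidneys and 36.1 CPM per kb in set B kidneys.

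**Figure D2:**
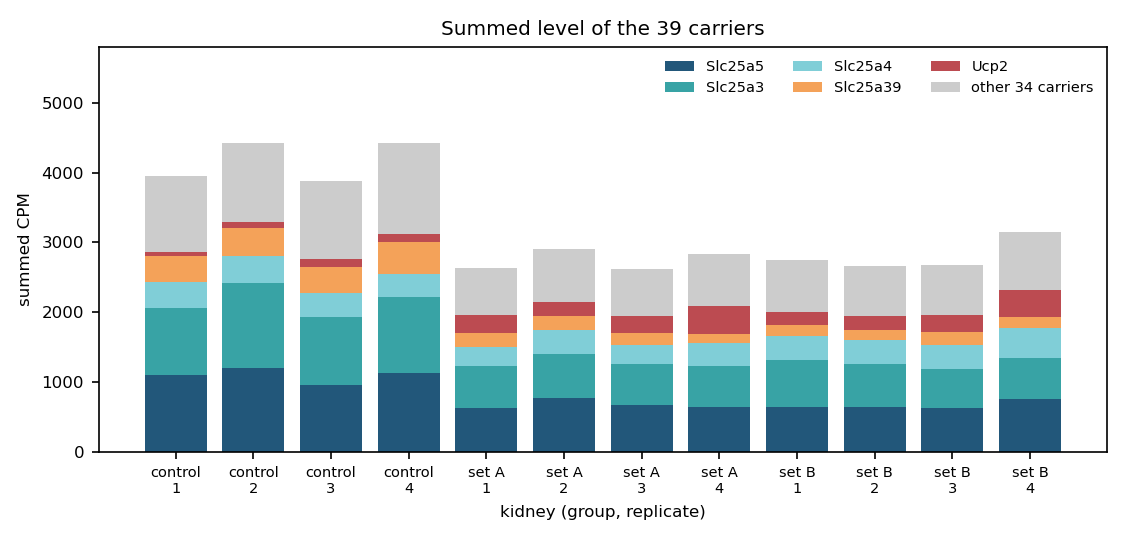
Summed CPM of the 39 carriers in each of the 12 kidneys (stacked bars from 0, y axis in CPM), split into Slc25a5, Slc25a3, Slc25a4, Slc25a39, Ucp2 and the other 34 carriers. Every control bar reaches at least 3887 CPM and no ischemic bar passes 3152 CPM.

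Since 8 of the 10 carriers called in both sets moved down and 2 moved up, the stretch before the gene start is shown for members of either kind, to let their base composition and motifs be compared. The sequences are the 250 bases before the RefSeq gene start on build GRCm38.p6, 5′ to 3′ on the strand of the gene, with capitals for motif matches. That of Ucp2 was cut at its GENCODE start and shows 229 bases, without those nearest its RefSeq start. RefSeq starts need not be the starts of the GENCODE positions given with the results, and the Slc25a5 and Slc25a10 sequences end 54 and 3 bases short of theirs. Slc25a5, Slc25a10 and Slc25a13 fell, and Slc25a24 and Ucp2 rose.
Slc25a5 (chrX:36795347-36795596, plus strand): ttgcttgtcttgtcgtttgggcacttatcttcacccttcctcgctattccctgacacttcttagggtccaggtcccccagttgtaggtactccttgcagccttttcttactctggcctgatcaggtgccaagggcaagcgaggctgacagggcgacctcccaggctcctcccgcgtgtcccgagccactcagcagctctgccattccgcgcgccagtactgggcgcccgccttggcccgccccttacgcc
Slc25a10 (chr11:120491587-120491836, plus strand): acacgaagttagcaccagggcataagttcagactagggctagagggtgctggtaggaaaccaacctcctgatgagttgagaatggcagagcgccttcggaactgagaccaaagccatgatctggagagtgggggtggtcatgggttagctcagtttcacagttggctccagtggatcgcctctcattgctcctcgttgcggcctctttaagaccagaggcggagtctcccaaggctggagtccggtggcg
Slc25a13 (chr6:6217174-6217423, minus strand): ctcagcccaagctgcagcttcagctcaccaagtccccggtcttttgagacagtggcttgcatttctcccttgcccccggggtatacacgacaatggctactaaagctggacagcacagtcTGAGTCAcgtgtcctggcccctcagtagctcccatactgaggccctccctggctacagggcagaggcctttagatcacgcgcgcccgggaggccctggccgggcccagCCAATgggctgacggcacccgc
Slc25a24 (chr3:109122899-109123148, plus strand): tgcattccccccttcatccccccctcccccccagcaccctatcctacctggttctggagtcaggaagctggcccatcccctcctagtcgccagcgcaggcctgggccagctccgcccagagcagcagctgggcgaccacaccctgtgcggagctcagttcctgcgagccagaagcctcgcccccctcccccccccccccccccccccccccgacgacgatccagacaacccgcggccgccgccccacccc
Ucp2 (chr7:100493108-100493336, plus strand): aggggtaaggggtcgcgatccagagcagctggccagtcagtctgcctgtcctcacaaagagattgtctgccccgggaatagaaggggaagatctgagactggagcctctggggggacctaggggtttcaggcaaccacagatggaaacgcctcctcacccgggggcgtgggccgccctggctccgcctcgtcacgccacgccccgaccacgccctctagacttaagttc

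Promoters were listed for 30 of the 39 carriers, as 39 windows, and 6 motifs were searched on both strands in the 250 bases before the start. The ERR element TNAAGGTCA and the palindromic NRF1 element, which are elements of factors known to act on mitochondrial genes, were in none of the 39 windows, beside 1.14% and 0.782% of all 32851 windows. The ETS motif CCGGAAG was in 5 carrier windows (12.8%, all windows 6.91%), those of Slc25a3, Slc25a4, Slc25a17, Slc25a20 and Slc25a38. The CCAAT box CCAAT was in 18 windows of 15 carriers (46.2%, all windows 33.8%), and the TATA box TATAAA was in 1 window, that of Slc25a21 (2.56%, all windows 12.4%). The AP-1 motif TGANTCA was in the windows of Slc25a11 and Slc25a13 (5.13%, all windows 6.75%). Of the 5 sequences above, only that of Slc25a13 held a match, a CCAAT box 22 bases and an AP-1 motif 130 bases before the start. The median GC content was 57.2% in carrier windows and 52.4% in all windows. These matches describe letters only and say nothing of binding.

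The nucleotide and phosphate carriers supply the matrix with ADP and phosphate and export ATP. Of 8 members, 3 fell and 1 rose in set A (all genes 11.7% lower and 10.5% higher), and 2 fell and 1 rose in set B (all genes 11.9% and 10.9%). Slc25a3, the phosphate carrier (chr10:91116574-91124059), had 973, 1213, 969 and 1089 CPM in the 4 controls, 611, 629.5, 588 and 589 CPM in set A kidneys and 667, 628, 564 and 584 CPM in set B kidneys. The highest ischemic value lay well under the lowest control value, and the log2 fold change was -0.84 ± 0.11 (SE) for set A and -0.82 ± 0.11 for set B, with edgeR adjusted p of 1.09e-05 and 1.46e-05. Slc25a5 (chrX:36795651-36798807), the ADP/ATP carrier ANT2, stood at 1093, 1198, 961 and 1130.2 CPM in controls, 619.7, 766, 664 and 645 CPM in set A kidneys and 643, 635, 622 and 757 CPM in set B kidneys. It fell by 0.73 ± 0.11 on the log2 scale for set A and by 0.75 ± 0.11 for set B (edgeR adjusted p 5.01e-05 and 3.8e-05), with no overlap of the groups. A processed copy of this gene, Slc25a5-ps on chromosome 14, is annotated in RefSeq, and how reads shared with it were counted is not given.

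Slc25a4, the ADP/ATP carrier ANT1 (chr8:46206797-46211284), did not follow Slc25a5. Its CPM was 366, 388, 346 and 331 in controls, 268, 346, 283 and 329 in set A kidneys and 353, 333, 347 and 428 in set B kidneys, and the groups overlapped. The log2 fold change was -0.25 ± 0.12 for set A and 0.00 ± 0.12 for set B (edgeR adjusted p 0.171 and 0.991). Within a kidney the ratio of Slc25a5 to Slc25a4 counts does not depend on library size. It was 2.99, 3.08, 2.78 and 3.41 in controls, 2.31, 2.22, 2.35 and 1.96 for set A and 1.82, 1.91, 1.79 and 1.77 for set B. The 3 groups did not overlap, and the log2 ratio was 1.61 ± 0.12 in controls (SD, n = 4), 1.14 ± 0.12 for set A and 0.87 ± 0.05 for set B. Each of the 3 differences gave p = 0.0286 in a two-sided exact permutation test, the smallest value that 4 against 4 kidneys allow, and 0.0981 after Benjamini-Hochberg adjustment over the 24 pair tests.

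Among the members, the ATP-Mg/phosphate carriers, which are regulated by calcium and adjust the nucleotide pool of the matrix, are Slc25a23, Slc25a24 and Slc25a25. Slc25a24 (chr3:109123149-109168457) was at 0.344, 0, 2.13 and 1.13 CPM in controls, 19.3, 20.2, 18.2 and 9.099 CPM in set A kidneys and 16.7, 21.4, 10.5 and 9.31 CPM in set B kidneys. Every ischemic kidney was above every control, and the log2 fold change was 4.17 ± 0.81 for set A and 3.98 ± 0.81 for set B (edgeR adjusted p 0.000668 and 0.000992). Its size is uncertain, since 1 control held no count, and over single kidneys left out it ran from 3.75 to 5.02 for set A and from 3.55 to 4.83 for set B. Slc25a25 (chr2:32414487-32451445) had 60.7, 36.5, 31.02 and 42.3 CPM in controls, 18.99, 18.3, 21.7 and 37.5 CPM in set A kidneys and 32.3, 20.9, 46.2 and 29.9 CPM in set B kidneys. It fell in set A by 0.83 ± 0.29 on the log2 scale (edgeR adjusted p 0.0453) with overlapping groups, and was at -0.42 ± 0.29 in set B (adjusted p 0.368). The set A call was lost without control kidney 1, 2 or 4 and without set A kidney 1, 2 or 3, at adjusted p between 0.0574 and 0.179. Slc25a23 was at 18.3, 21.99, 17.8 and 21.2 CPM in controls, 10.5, 16.9, 10.9 and 13.02 CPM in set A kidneys and 4.15, 11.4, 14.8 and 20.7 CPM in set B kidneys, and passed in neither comparison (edgeR adjusted p 0.281 and 0.255).

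Slc25a33 and Slc25a36 carry pyrimidine nucleotides and were low. Slc25a36 had 11.5, 12.2, 9.89 and 14.4 CPM in controls, 2.72, 8.55, 7.93 and 4.88 CPM in set A kidneys and 5.72, 6.89, 7.01 and 0 CPM in set B kidneys. Both ischemic sets lay under the controls without overlap, but the test was not passed (log2 fold change -1.02 ± 0.78 and -1.30 ± 0.79, edgeR adjusted p 0.439 and 0.285). Slc25a33 was at 3.49, 3.32, 2.69 and 5.05 CPM in controls, 0, 0, 3.304 and 1.72 CPM in set A kidneys and 3.18, 1.68, 2.37 and 10.5 CPM in set B kidneys, with edgeR adjusted p of 0.495 and 0.941.

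**Figure D3:**
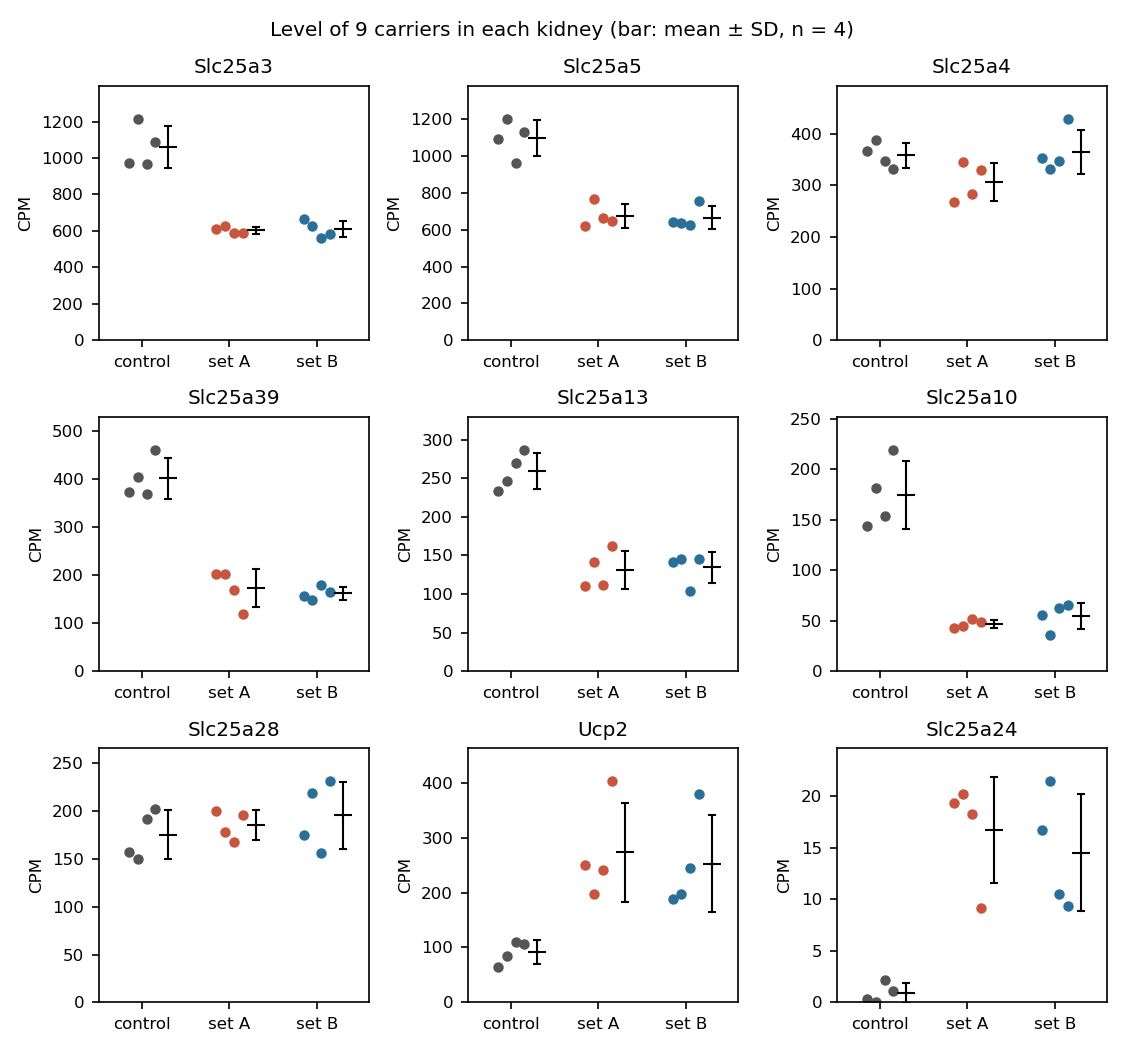
CPM (y axis, from 0) of 9 carriers in each kidney of the 3 groups (x axis), 1 point per kidney, with the mean ± SD of the 4 kidneys beside the points. Slc25a3, Slc25a5, Slc25a39, Slc25a13 and Slc25a10 are lower in all 8 ischemic kidneys than in any control, Ucp2 and Slc25a24 are higher in all 8, and Slc25a4 and Slc25a28 overlap.

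Carboxylate carriers move intermediates of the citric acid cycle across the inner membrane. Of the 5 members of this group, which includes the acylcarnitine carrier, 3 fell in set A (all genes 11.7%) and 1, Slc25a10, in set B (all genes 11.9%), and none rose. Slc25a10, the dicarboxylate carrier that exchanges malate and succinate for phosphate (chr11:120491840-120499187), had 144, 182, 153 and 219 CPM in controls, 42.8, 44.9, 52.4 and 48.6 CPM in set A kidneys and 55.8, 36.5, 62.8 and 65.5 CPM in set B kidneys. The groups were far apart, and expression was 3.77-fold lower in the kidneys of set A and 3.23-fold lower in those of set B, with log2 fold changes of -1.91 ± 0.19 and -1.69 ± 0.19 and edgeR adjusted p of 3.06e-07 and 1.46e-06. This was the lowest log2 fold change among the carriers called in either set.

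Slc25a11, the oxoglutarate/malate carrier of the malate-aspartate shuttle (chr11:70644196-70647479), had 24.7, 37.3, 40.6 and 39.2 CPM in controls, 17.9, 12.2, 8.82 and 15.5 CPM in set A kidneys and 11.9, 14.7, 20.6 and 32.9 CPM in set B kidneys. Set A lay under all controls and fell by 1.41 ± 0.33 on the log2 scale (edgeR adjusted p 0.00344). Set B overlapped the controls through kidney 4, at -0.86 ± 0.33 (adjusted p 0.0652), and passed without that kidney (log2 fold change -1.20, adjusted p 0.00967) or without control kidney 1 (-1.02, adjusted p 0.0402). Its exons share 189 bases with Rnf167 on the opposite strand, whose mean was 101 CPM in controls, 46.6 CPM in set A kidneys and 40.2 CPM in set B kidneys. The libraries were stranded, but the strand setting of the counting is not given in the sources used here, so that reads of this stretch cannot be told apart.

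Slc25a1, the citrate carrier (chr16:17925223-17928219), was at 30.9, 41.3, 31.6 and 58.9 CPM in controls, 16.9, 33.5, 17.9 and 24.7 CPM in set A kidneys and 29.96, 21.5, 30.7 and 19.7 CPM in set B kidneys. Set A and the controls overlapped, while set B did not overlap them. It fell in set A by 0.84 ± 0.28 on the log2 scale (edgeR adjusted p 0.0397), and in set B the value was -0.70 ± 0.28 (adjusted p 0.0857). The set A call was lost without control kidney 2 or 4 and without set A kidney 1, 3 or 4, at adjusted p between 0.0555 and 0.196. Slc25a20, which brings acylcarnitines in for fatty acid oxidation, was at 17.7 ± 1.91 CPM in set A kidneys and 21.1 ± 6.74 CPM in set B kidneys against 20.6 ± 6.18 CPM in controls (SD, n = 4; log2 fold change -0.24 ± 0.30 and 0.01 ± 0.30), and passed in neither. Slc25a21, the oxodicarboxylate carrier, had 0, 0.817, 2.24 and 4.41 CPM in controls, counts in 1 of 4 set A kidneys (0.825 CPM) and none in set B. Its adjusted p in set B was 0.065 in edgeR and 0.0273 in DESeq2, and the size of the fitted change has no meaning where a group has no count.

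Among the 8 carriers of amino acids and glutathione, 3 fell in both sets, beside 11.7% and 11.9% of all genes, and none rose, beside 10.5% and 10.9%. Slc25a39, a glutathione carrier of the mitochondrion (chr11:102402985-102407946), had 373, 406, 369.7 and 461 CPM in controls, 204, 202, 170.1 and 120.1 CPM in set A kidneys and 156, 148, 180.3 and 166 CPM in set B kidneys. All ischemic kidneys were lower than all controls, with a log2 fold change of -1.24 ± 0.15 for set A and -1.33 ± 0.15 for set B and an edgeR adjusted p of 4.22e-06 and 1.84e-06. Its paralog Slc25a40 was near the counting limit, at 1.03, 1.17, 1.46 and 0.308 CPM in controls, 1.02, 0, 0.982 and 0 CPM in set A kidneys and 0.334, 0, 0 and 3.25 CPM in set B kidneys, and a change was not detectable at this depth. Slc25a15, the ornithine carrier (chr8:22375551-22398597), had 74.1, 94.2, 77.1 and 61.4 CPM in controls, 29.5, 36.8, 28.4 and 18.9 CPM in set A kidneys and 49.2, 18.8, 31.6 and 34.6 CPM in set B kidneys. The groups did not overlap, and it fell by 1.46 ± 0.26 and 1.22 ± 0.26 on the log2 scale (edgeR adjusted p 0.000336 and 0.00175).

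Slc25a13 and Slc25a12 both exchange aspartate for glutamate in the malate-aspartate shuttle. Slc25a13, known as citrin (chr6:6041218-6217173), was at 233, 247, 269 and 286 CPM in controls, 110.1, 141, 111 and 162 CPM in set A kidneys and 142, 146, 104 and 146 CPM in set B kidneys. It fell without overlap, by 1.01 ± 0.16 on the log2 scale for set A and 0.97 ± 0.16 for set B (edgeR adjusted p 8.76e-05 and 0.000133). Slc25a12 (chr2:71271063-71367749) had 38.5, 48.8, 53.1 and 59.4 CPM in controls, 37.3, 39.9, 36.3 and 41.6 CPM in set A kidneys and 37.9, 38.3, 54.2 and 44.4 CPM in set B kidneys. Its groups overlapped, and the log2 fold change was -0.39 ± 0.20 and -0.22 ± 0.20 (edgeR adjusted p 0.183 and 0.514). The ratio of Slc25a13 to Slc25a12 counts was 6.07, 5.07, 5.08 and 4.82 in controls, 2.95, 3.54, 3.07 and 3.89 for set A and 3.75, 3.81, 1.93 and 3.29 for set B. Every ischemic ratio was under every control ratio, and the log2 ratio differed by -0.65 for set A and -0.76 for set B (exact permutation p = 0.0286 for each, adjusted 0.0981 over the 24 pair tests).

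Slc25a22, a glutamate carrier, had 5.21, 8.68, 6.91 and 6.52 CPM in controls, 8.02, 14.7, 10.8 and 6.84 CPM in set A kidneys and 9.697, 3.35, 3.603 and 4.03 CPM in set B kidneys, and the groups overlapped (edgeR adjusted p 0.56 and 0.654 against control). The branched-chain amino acid carrier Slc25a44 did not pass either, at a log2 fold change of -0.34 ± 0.28 and -0.42 ± 0.28. The glycine carrier Slc25a38 had 3.14, 4.597, 1.79 and 0 CPM in controls, counts in 1 set A kidney (kidney 2, 4.82 CPM) and 0.334, 0.435, 0.839 and 3.64 CPM in set B. It did not pass in set A (edgeR adjusted p 0.825), although with set A kidney 2 left out the set held no count and the adjusted p was 0.0274.

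Cofactor and iron carriers were mostly under 10 CPM, and of 9 members 1 fell in set A (all genes 11.7%) and 2, Slc25a16 among them, in set B (all genes 11.9%). Slc25a16, linked to the supply of coenzyme A (chr10:62920633-62946498), had 30.7, 24.5, 21.2 and 28.1 CPM in controls, 6.01, 11.03, 6.16 and 9.22 CPM in set A kidneys and 6.62, 11.3, 18.7 and 13.9 CPM in set B kidneys. It was lower in all ischemic kidneys, by 1.71 ± 0.35 on the log2 scale for set A and 1.08 ± 0.35 for set B (edgeR adjusted p 0.0012 and 0.0309). The call in set B was lost without control kidney 1, 2 or 4 and without set B kidney 1 or 2, at adjusted p between 0.0549 and 0.0867. Slc25a17, which serves peroxisomes rather than mitochondria (chr15:81318911-81360812), was at 55.7, 53.6, 73.8 and 82.8 CPM in controls, 45.4, 65.6, 47.95 and 51.7 CPM in set A kidneys and 41.8, 40.4, 37.1 and 38.1 CPM in set B kidneys. Set B lay under both other groups, with a log2 fold change against control of -0.78 ± 0.20 (edgeR adjusted p 0.00622), and set A overlapped the controls at -0.36 ± 0.20 (adjusted p 0.223).

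The iron carriers known as mitoferrins did not pass the test. Slc25a28 (chr19:43663801-43674881), mitoferrin 2, had 157, 149.5, 191 and 202 CPM in controls, 199.6, 178, 167 and 196 CPM in set A kidneys and 175, 219, 156 and 231 CPM in set B kidneys. The groups overlapped throughout, with a log2 fold change of 0.06 ± 0.15 and 0.13 ± 0.15 (edgeR adjusted p 0.883 and 0.642). Mitoferrin 1, Slc25a37, was at 9.04, 3.83, 4.55 and 8.62 CPM in controls, 3.996, 12.2, 15.3 and 7.26 CPM in set A kidneys and 7.62, 8.51, 7.01 and 0.0651 CPM in set B kidneys, with edgeR adjusted p of 0.729 and 0.93. Slc25a42, the coenzyme A carrier, had a mean of 6.73 ± 4.02 CPM in controls (SD, n = 4), 1.21 ± 1.45 CPM in set A kidneys and 2.66 ± 2.04 CPM in set B kidneys (log2 fold change -2.49 ± 1.12 and -1.38 ± 1.08), with edgeR adjusted p of 0.128 and 0.44, and over single kidneys left out the set A value ran from -3.71 to -2.11. The carriers Slc25a26 (S-adenosylmethionine), Slc25a32 (folate and FAD) and Slc25a51 (NAD) had control means between 1.87 and 3.98 CPM, and none passed.

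Of the 4 members of the uncoupling protein branch, 1, Ucp2, rose in both sets, beside 10.5% and 10.9% of all genes. Ucp2 (chr7:100493337-100502020) is a carrier of the inner membrane that was named for its likeness to the uncoupling protein of brown fat. It had 63.8, 85.2, 109 and 107 CPM in controls, 249.6, 198, 241 and 403 CPM in set A kidneys and 189, 197, 244 and 380.0 CPM in set B kidneys. The lowest ischemic value was above the highest control, and expression was 2.93-fold higher in the kidneys of set A and 2.69-fold higher in those of set B, with log2 fold changes of 1.55 ± 0.24 and 1.43 ± 0.24 and edgeR adjusted p of 7.43e-05 and 0.000171. Ucp2 is known to be expressed in macrophages. The 4 myeloid markers found in the table, of 5 listed, summed to 44.6 to 64.5 CPM in controls, 9.55 to 26.2 CPM in set A kidneys and 12.1 to 34.01 CPM in set B kidneys. Both ischemic ranges lay under the control range, and the part of these cells in the Ucp2 level was not tested. The exons of Ucp2 share 305 bases with Dnajb13 on the opposite strand, which had no count in the 4 controls and at most 37 counts in an ischemic kidney.

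The other 3 members of this branch did not pass against control. Slc25a14, also called UCP5, had 3.24, 3.78, 2.202 and 3.18 CPM in controls, 2.24, 4.64, 2.12 and 0.892 CPM in set A kidneys and 4.58, 5.46, 4.59 and 16.5 CPM in set B kidneys. Set B lay above the controls, mainly through kidney 4, at a log2 fold change of 1.29 ± 0.72 (edgeR adjusted p 0.233), and without that kidney it was 0.64 (adjusted p 0.703). Slc25a30 and Slc25a27 had log2 fold changes of -0.01 ± 0.43 and -1.04 ± 1.96 for set A and of -0.44 ± 0.43 and -1.09 ± 1.97 for set B. Over single kidneys left out, that of Slc25a27 ran from -2.19 to -0.59 for set A and from -1.94 to -0.63 for set B.

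Of the 5 less well characterised members, 1 fell in both sets, beside 11.7% and 11.9% of all genes. Slc25a46, an outer membrane protein tied to mitochondrial shape, had 60.2, 71.02, 42.8 and 52.6 CPM in controls, 21.9, 25.00, 25.9 and 24.7 CPM in set A kidneys and 23.1, 25.1, 16.04 and 22.1 CPM in set B kidneys. Its ischemic values lay close together and under all controls, with a log2 fold change of -1.24 ± 0.22 for set A and -1.41 ± 0.23 for set B (edgeR adjusted p 0.000328 and 9.41e-05). The remaining members Slc25a34, Slc25a35, Slc25a45 and Slc25a48 had log2 fold changes from -0.98 (Slc25a35) to -0.08 (Slc25a45) for set A and from -1.13 (Slc25a48) to 0.45 (Slc25a45) for set B, and none passed. In set B these depend on single kidneys, with -2.02 to -0.58 for Slc25a48 and -7.14 to 7.25 for Slc25a34 when 1 was left out.

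Pairs of carriers with like substrates were compared within each kidney, as the log2 ratio of their counts with 0.5 added. Of 9 pairs listed, 8 had counts for both genes, and the pair of Slc25a22 with Slc25a18 was left out for want of counts. None of the 24 tests passed at an adjusted p below 0.05, for which at least 14 of them would have to reach the smallest p that 4 against 4 kidneys allow. Beside Slc25a5 over Slc25a4 and Slc25a13 over Slc25a12, the ratio of Slc25a24 to Slc25a23 did not overlap between controls and either set. It was 0.0188, 0, 0.12 and 0.0531 in controls, 1.83, 1.19, 1.67 and 0.699 for set A and 4.03, 1.89, 0.71 and 0.45 for set B (exact permutation p = 0.0286, adjusted 0.0981). Slc25a11 over Slc25a10 was 0.172, 0.205, 0.265 and 0.179 in controls, 0.418, 0.273, 0.168 and 0.319 for set A and 0.214, 0.403, 0.329 and 0.502 for set B. These groups overlapped (exact permutation p = 0.229 for set A and 0.0571 for set B). The pairs Slc25a25 over Slc25a23, Slc25a37 over Slc25a28, Slc25a33 over Slc25a36 and Slc25a40 over Slc25a39 overlapped in every comparison.

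**Figure D4:**
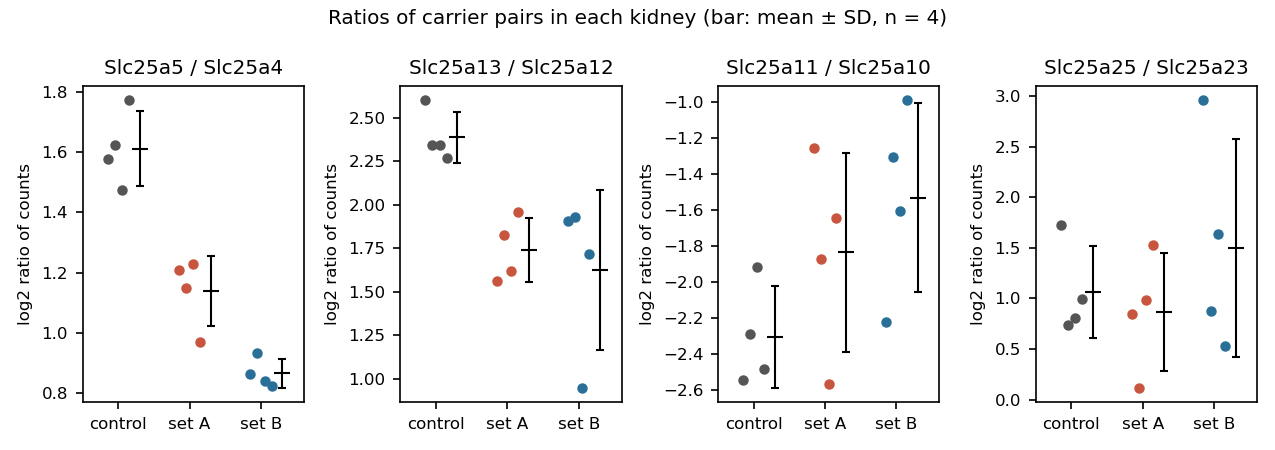
Log2 ratio of counts within each kidney (y axis, not starting at 0) for 4 pairs of carriers in the 3 groups, 1 point per kidney, with the mean ± SD of 4 kidneys beside the points. Slc25a5 over Slc25a4 steps from 1.61 in controls to 1.14 for set A and 0.87 for set B without overlap, Slc25a13 over Slc25a12 separates controls from both sets, and the other 2 pairs overlap.

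The sets were also compared directly. In set B against set A no carrier of the 39 passed edgeR's test after adjustment, as 1 of all 11664 genes did (0.00857%), DESeq2 called 0, and 2 had an unadjusted p below 0.05 in edgeR, a share close to the 5.03% of all genes tested. They were Slc25a14, at a log2 fold change of 1.65 ± 0.73 (edgeR unadjusted p 0.0348, adjusted p 0.962), and Slc25a17, at -0.42 ± 0.20 (unadjusted p 0.0473, adjusted p 0.981). Without set B kidney 4 these were 0.996 (unadjusted p 0.249) and -0.39 (unadjusted p 0.0758). Slc25a17 was the only carrier whose sets did not overlap, beside 2.65% of all genes. The median log2 fold change between the sets was 0.08 for the carriers and -0.01 for all genes. The best measured carriers had narrow errors, with 0.02 ± 0.11 for Slc25a3, -0.02 ± 0.11 for Slc25a5 and 0.25 ± 0.12 for Slc25a4 (edgeR unadjusted p 0.052), while carriers under 10 CPM had standard errors of up to 2.80 on the log2 scale (Slc25a21).

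Other genes of mitochondrial transport were read for comparison from lists drawn up by function. Of 20 tested channels and transporters without an Slc25a symbol, 9 were lower and 1 higher in set A, beside 11.7% and 10.5% of all genes tested, and 8 were lower and 1 higher in set B, beside 11.9% and 10.9%, with median log2 fold changes of -0.76 and -0.74. The list holds Mtch1 and Mtch2, distant relatives within the SLC25 family, of which Mtch2 was lower in both sets and Mtch1 in set A. The mitochondrial pyruvate carrier subunit Mpc2 was at -1.997 ± 0.33 and -1.73 ± 0.33, the outer membrane channel Vdac1 at -1.28 ± 0.16 and -1.08 ± 0.16, and the sideroflexin Sfxn2 at -1.99 ± 0.33 and -1.67 ± 0.32. Sfxn3, another sideroflexin, was higher at 1.05 ± 0.30 and 1.35 ± 0.31. The 14 tested genes of the import route of the carriers, such as the TOM receptors and the small TIM chaperones, gave no call in edgeR's test in either set (22.3% and 22.8% of all genes were called in either direction), with medians of -0.23 and -0.49. An unadjusted p below 0.05 was found for 1 of them in set A and 4, Tomm5 among them, in set B (31.5% and 32.7% of all genes), and DESeq2 called 0 and 1. Of 8 regulators of mitochondrial genes, 3 fell in set A and 4 in set B, beside 11.7% and 11.9% of all genes, and the difference between these counts was not tested. Esrra, an orphan nuclear receptor that acts with Ppargc1a on genes of oxidative metabolism, fell by 1.52 ± 0.25 and 1.31 ± 0.25 on the log2 scale in the sets (edgeR adjusted p 0.00015 and 0.000608).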

How the data were processed

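RNA of 12 mouse kidneys, without the middle portion taken for histology, was sequenced from stranded mRNA libraries as single reads. The authors aligned them to mm10 using STAR, and the deposited values are raw HTSeq counts per gene. Tool versions, the annotation release and the strand setting are not given in the sources used here. The counts went into edgeR 4.0.16 under R 4.3.3 (default filterByExpr, TMM, 1 negative binomial model over the 3 groups, two-sided quasi-likelihood F-tests, Benjamini-Hochberg adjustment over 11664 genes, threshold 0.05). Members, lists and pairs were chosen with earlier results of these data known. Values in every kidney are given for carriers past the threshold, for the 5 with the highest mean, for both genes of each pair and for those with an unadjusted p below 0.05 between the sets. Pair ratios were compared by exact permutation tests (SciPy 1.17.1). Positions and exon lengths are from GENCODE vM21, promoters from RefSeq. Alternatives were DESeq2 1.42.0, RLE size factors, no filter, a fit of just the 8 kidneys compared, a block for the replicate number, and each kidney left out. Values of 1 carrier counted among the 39 are not reported here. The edgeR step was tested on simulated data with a smaller spread than the common one fitted here. That does not measure how it performs on these data.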

Additional observations from a re-analysis of the deposited data

Results flagged for a closer look

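In groups of 4 kidneys, a value was picked out when its gap to the nearest other value, as a share of the range of the group, passed the 95% critical value of Dixon's test. Of 75 groups tested 7 met this, where chance alone gives about 1 in 20, and all 7 were in ischemia set B, 5 of them in kidney 4, the smallest library. In that kidney Slc25a5 was at 757 CPM against 622 to 643 CPM in the other 3, Slc25a14 at 16.5 against 4.58 to 5.46 CPM, Slc25a33 at 10.5 against 1.68 to 3.18 CPM and Slc25a40 at 3.25 against 0 to 0.334 CPM. The summed level of the carriers there was 3152 CPM against 2663 to 2744 CPM. Slc25a13 was low in kidney 3, at 104 CPM against 142 to 146 CPM, and Slc25a22 was high in kidney 1, at 9.697 CPM against 3.35 to 4.03 CPM. The source of these values was not tested.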

How the results depend on the processing

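The number of carriers called in set A was 12 to 13 under 5 other settings (DESeq2, RLE size factors, a fit without the filter, a fit of just the 8 kidneys compared, and a replicate block) and 11 to 13 with single kidneys left out. For set B it was 11 to 12 and 10 to 12. It was 0 between the sets under all of them. The share of all genes called under these alternatives, DESeq2 among them, is not given here, so that these counts cannot be set beside it. With the replicate block, 12 carriers were called in set A and 11 in set B. Kidneys with the same number did not deviate together (correlations from -0.055 to 0.045). Such correlations cannot exclude that same-numbered kidneys share a mouse or a day, which the labels do not give. The median log2 fold change of the carriers in set A ran from -0.86 to -0.64 over single kidneys left out, the last of these without set A kidney 1. No carrier that was called changed direction. Of 1357 values of single carriers under the alternatives, 18 lost the call and 4 gained it. Beside those given with Slc25a1, Slc25a11, Slc25a16, Slc25a21, Slc25a25 and Slc25a38, these were Slc25a1 in set A under the replicate block (adjusted p 0.0541) and Slc25a25 in set A with RLE size factors (adjusted p 0.0535). Carriers under 10 CPM limit what can be said at this depth, and 15 of 39 were at 3 counts or fewer in some kidney.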
